A study of Mus musculus with 4 samples.

Results

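The regions described here were autosomal 1 kb tiles of the mouse genome with few covered CpGs that were highly methylated in mature B cells of wild-type mice. A tile was a member when it held 2 to 5 distinct CpGs covered in any of the 4 libraries, its CpGs had at least 20 summed reads in wild-type B cells, and their pooled methylation level in that library was at least 80%. This rule gave 95395 tiles of the 421973 autosomal tiles with a covered CpG, or 22.6%. Among the 120565 tiles with 2 to 5 covered CpGs and enough wild-type B cell reads, the members made up 79.1%, and the other 25170 were below 80%. The members were thus chosen by their coverage and level in wild-type B cells, and every difference from that library is given below as a description with no test.

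Reduced representation bisulfite sequencing (RRBS) reads cytosine methylation at the ends of restriction fragments, here cut with MspI and TaqI. There were 4 libraries, 1 per cell type and genotype, each of DNA pooled from 6 to 9 mice of the CBAxC57BL/6J background, so no library had a replicate and no value below carries the variation between mice. The cells were haematopoietic stem and progenitor cells (HSPCs), sorted as Sca1+Lin- from bone marrow, and mature B cells, sorted as B220+ from peripheral blood. The genotypes were wild-type and Sca1-BCL6Δ. In the latter a floxed Bcl6 cDNA joined to an IRES-eGFP cassette was driven by the Sca1 promoter and was removed by a Cre at the Cd79a locus (mb1-Cre), which acts from the start of the B lineage. The labels call the other mice wild-type and name no transgene or Cre for them. The submitters' methods text names more than one transgenic line and does not say which was pooled, and the labels give no age. Sca1 was both the promoter of the transgene and a marker of the HSPC sort, and methylation files cannot show whether the sorted cells were pure.

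Methyl groups on the cytosine of a CpG are placed by DNMT3A and DNMT3B and are copied to the new strand at each cell division by DNMT1 with UHRF1. In mammalian genomes most CpGs lie thinly spread between genes and in introns and are methylated in most cell types, whereas dense CpG islands at promoters are mostly unmethylated. Methylation of the thinly spread CpGs is lost passively where copying fails and actively through the TET enzymes, and partial loss over long stretches is known from many tumours and from cells that have divided often. BCL6 is a transcriptional repressor needed for germinal centre B cells, and it is an oncogene in mature B cell lymphoma.

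The number of CpGs counts those that the libraries covered, not those in the genome sequence, so that a tile with few covered CpGs can hold others outside the sequenced fragment ends. Of the members, 30331 held 2 CpGs, 31666 held 3, 21038 held 4 and 12360 held 5. Covered CpGs of a tile lay within a median of 141 bp, and in 16.9% of the tiles within 50 bp, which is little more than 1 aligned fragment end of 36 bp. Reads in member tiles also held few CpGs, which the limit of 2 to 5 covered CpGs itself favours. In the wild-type HSPC library 67.6% of the reads in member tiles held 1 CpG. The share was 41.9% in tiles with 6 or more covered CpGs that met the same level rule. Members stood on all 19 autosomes, from 2617 tiles on chromosome 19 to 6946 on chromosome 2. Their share of the tiles with enough reads ran from 75.9% on chromosome 11 to 81.3% on chromosome 1. This share was 80.3% at 2 CpGs, 80.5% at 3, 78.3% at 4 and 74.7% at 5.

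Depth differed between the libraries, and the members could not all be measured in each. Mean coverage per CpG over the whole table was 7.48 reads in wild-type and 5.45 in Sca1-BCL6Δ HSPCs, and 10.98 in wild-type against 6.48 in Sca1-BCL6Δ B cells. A minimum of 20 summed reads was met by 43973 members (46.1%) in wild-type and 15047 (15.8%) in Sca1-BCL6Δ HSPCs, and by 25558 (26.8%) in Sca1-BCL6Δ B cells. No read covered 958, 6448 and 3415 members in the same order. A level in every library at this minimum was available for 9940 members, called the shared tiles below. No molecular identifiers were used, so reads are not separate molecules and the Wilson 95% confidence intervals given below cover counting error at most. In neighbouring CpGs the summed reads also count 1 read once for each CpG it spans. An interval on the summed reads of a whole tile is then too narrow even for counting error.

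Wild-type HSPCs stood apart from the other libraries in these tiles. The mean tile level there was 78.5% (SD 14.1 over 43973 tiles), with a median of 80%. It was 92.5% (SD 9.74 over 15047 tiles) in Sca1-BCL6Δ HSPCs and 94.7% (SD 7.05 over 25558 tiles) in Sca1-BCL6Δ B cells. The rule held it at or above 80% in wild-type B cells, where it was 94.9% (SD 5.30 over 95395 tiles). The SD is the spread over tiles within 1 library. The standard error over the 19 autosome means was 0.0881, 0.0808 and 0.0689 percentage points in the order of the first 3 libraries named here, and it describes evenness along the genome, not the error between mice.

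The fall of a tile is its level in wild-type B cells minus its level in another library, in percentage points. The mean fall was 16.4 points (SD 13.4, median 14.8) to wild-type HSPCs, 2.49 points (SD 9.08, median 0.58) to Sca1-BCL6Δ HSPCs and 0.253 points (SD 6.36, median 0) to Sca1-BCL6Δ B cells. With tiles chosen by the same rule in Sca1-BCL6Δ B cells in place of wild-type ones, the last value changed sign to -1.13 points, so its direction, here and in the divisions by CpG count and chromosome below, depends on which B cell library chose the tiles. Levels above those of wild-type B cells were found in 7.41%, 36.9% and 44.5% of the tiles in that order, and levels below them in 89.7%, 52.2% and 40.4%, the rest being equal. The Sca1-BCL6Δ B cell library thus had somewhat more tiles above than below its wild-type counterpart, and the wild-type HSPC library had few above.

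A fall of 20 points or more was counted in 15685 tiles (35.7%) in wild-type HSPCs, where 23% of all autosomal tiles with enough reads in both libraries fell as far. It was counted in 584 tiles (3.88%, background 3.59%) in Sca1-BCL6Δ HSPCs and in 278 tiles (1.09%, background 2.07%) in Sca1-BCL6Δ B cells. The background holds tiles that were already low in wild-type B cells and had less room to fall, and the rule used this contrast, so the shares are a description. The drop was partial in most tiles. Levels below 50% were found in 1429 members (3.25%) in wild-type and 116 (0.771%) in Sca1-BCL6Δ HSPCs, and in 23 (0.09%) in Sca1-BCL6Δ B cells, against 33.6%, 47% and 38.6% of all tiles, which include tiles that were low in wild-type B cells. Full methylation, with every read methylated, was seen in 5.39% of the tiles in wild-type HSPCs against 30.1% in Sca1-BCL6Δ HSPCs.

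Over the 9940 shared tiles the same picture held with the same regions in every library. Mean levels were 79.5% in wild-type and 92.6% in Sca1-BCL6Δ HSPCs, and 94.95% in wild-type against 94.8% in Sca1-BCL6Δ B cells. The fifth percentiles were 56%, 75%, 84.3% and 80.95% in the same order. The whole distribution of wild-type HSPCs lay lower, with its upper quartile at 89.3%, under the lower quartile of each other library, which was 90% or more. Sca1-BCL6Δ HSPCs were 13.1 points above wild-type HSPCs on average (SD 13.5 over tiles), higher in 85.6% of the shared tiles and higher on 19 of 19 autosomes, where the mean difference ran from 12.01 to 14.2 points. Sca1-BCL6Δ B cells were above Sca1-BCL6Δ HSPCs by 2.24 points, again on 19 of 19 autosomes.

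**Figure D1:**
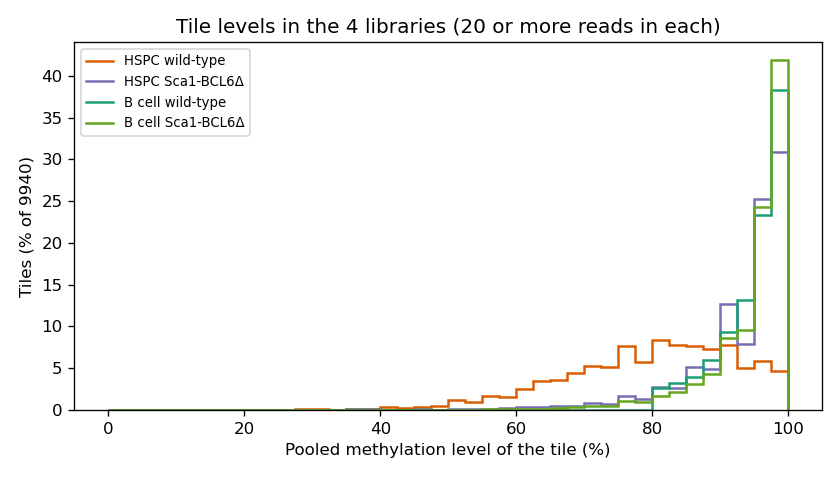
Distribution of the pooled methylation level (x axis, %) over the 9940 tiles with at least 20 reads in all 4 libraries, as the percent of those tiles in each bin (y axis), 1 outline per library. The wild-type HSPC outline is broad with a mean of 79.5%, and the outlines of the other libraries are gathered at the right edge, with means from 92.6% to 94.95%.

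Levels below 50% were rare in the shared tiles. They were found in 216 tiles (2.17%) in wild-type HSPCs. For the Sca1-BCL6Δ genotype they were found in 68 tiles (0.684%) of the HSPC library and 10 (0.101%) of the B cell library. Of the shared tiles, 213 were below 50% in wild-type HSPCs and in no other library, 64 in Sca1-BCL6Δ HSPCs alone and 8 in Sca1-BCL6Δ B cells alone. Both HSPC libraries were below 50% in 2 further tiles, both Sca1-BCL6Δ libraries in 1, and all 3 libraries other than wild-type B cells in 1. Lows as rare as these would seldom coincide even if they were unrelated. The counts are therefore a description and no trait of the tiles, and whether lows coincided more often than unrelated ones was not tested. Across the shared tiles the levels correlated least between the HSPC libraries, with r = 0.301 (Spearman's rho 0.306), and most between the B cell libraries, with r = 0.526 (rho 0.438), by Pearson's r over the 6 pairs. Wild-type HSPCs correlated with wild-type and Sca1-BCL6Δ B cells with r = 0.358 and 0.317 (rho 0.344 and 0.291), and Sca1-BCL6Δ HSPCs with 0.403 and 0.427 (rho 0.382 and 0.364). These are correlations over 9940 tiles that share 1 genome, the same fragment ends and limited depth. The tiles are not independent replicates.

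Members just inside the level threshold did not differ sharply from tiles just outside it. The 1659 members at 80 to 81% in wild-type B cells had mean levels of 66.4% in wild-type and 79.8% in Sca1-BCL6Δ HSPCs, and of 83.1% in Sca1-BCL6Δ B cells. The 630 tiles at 79 to 80%, which were not members, had 64.4%, 79.1% and 81.2% in the same order.

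By CpG count the fall to wild-type HSPCs was largest in tiles with the fewest covered CpGs. It was 18.1 points (SE 0.257 over 19 autosomes) in tiles with 2 CpGs, 16.7 (SE 0.120) with 3, 15.7 (SE 0.148) with 4 and 14.9 (SE 0.133) with 5. The share of tiles that fell by 20 points or more declined likewise, from 41.5% to 37.0%, 33.1% and 31.2%. The fall to Sca1-BCL6Δ HSPCs was 3.30, 2.76, 2.19 and 2.27 points at 2, 3, 4 and 5 CpGs, and that to Sca1-BCL6Δ B cells was 0.563, 0.171, 0.208 and 0.247 points. In Sca1-BCL6Δ HSPCs the tiles with 2 and 3 CpGs thus stood above those with 4 and 5, with standard errors of at most 0.283 points. In Sca1-BCL6Δ B cells the tiles with 2 CpGs stood above the rest, with standard errors of at most 0.130 points, though this was not resolved in the shared tiles.

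In the shared tiles the order at the low end was not resolved. Falls to wild-type HSPCs were 16.1 points (SE 0.847, 455 tiles) at 2 CpGs, 16.5 (SE 0.253, 2710 tiles) at 3, 15.3 (SE 0.182, 3615 tiles) at 4 and 14.7 (SE 0.183, 3160 tiles) at 5. Tiles with 6 or more covered CpGs that met the same level rule, 17115 in all, continued the decline with a fall of 13.3 points to wild-type HSPCs. Their falls to Sca1-BCL6Δ HSPCs and Sca1-BCL6Δ B cells were 2.12 and 0.372 points. Over the shared tiles the fall to Sca1-BCL6Δ HSPCs was 3.26 (SE 0.484), 2.67, 2.31 and 2.09 points at 2, 3, 4 and 5 CpGs. That to Sca1-BCL6Δ B cells was 0.507 (SE 0.365), 0.0930, 0.0827 and 0.204 points, so its order was not resolved. Depth moved with CpG count, since a tile with fewer CpGs needs more reads on each to reach the minimum. In wild-type HSPCs the mean level of the members was 77.0% at 5 to 9 summed reads, 78.2% at 20 to 39 and 79.9% at 40 to 99, and the part of depth in the trend with CpG count was not tested.

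**Figure D2:**
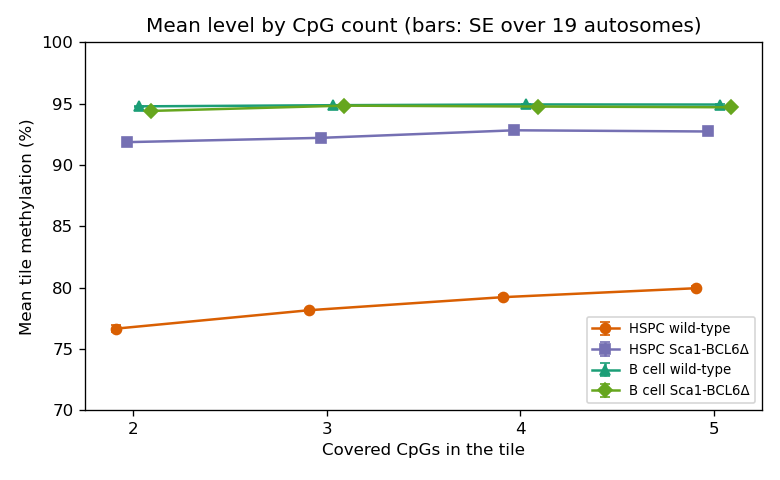
Mean tile methylation (y axis, %, starting at 70) by the number of covered CpGs in the tile (x axis), 1 line per library, with bars for the standard error over 19 autosome means. Wild-type HSPCs rise from 76.6% at 2 CpGs to 79.9% at 5, and the other libraries stay between 91.9% and 94.9%.

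Chromosomes differed little. The mean fall to wild-type HSPCs ran from 15.7 points on chromosome 15 (2045 tiles) to 17.2 on chromosome 9 (2428 tiles), a range of 1.47 points. To Sca1-BCL6Δ HSPCs it ran from 2.07 points on chromosome 19 (435 tiles) to 3.66 on chromosome 13 (647 tiles), and to Sca1-BCL6Δ B cells from 0.00352 points on chromosome 14 to 0.506 on chromosome 8. Chromosome 13 also had the highest share of tiles below 50% in Sca1-BCL6Δ HSPCs, 1.70% against a median of 0.792% over the autosomes, whereas its fall of 16.9 points to wild-type HSPCs was within the range of the others.

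Splitting the members by chromosome and CpG count together gave 76 classes, the smallest with 33 tiles in Sca1-BCL6Δ HSPCs. In 76 of 76 the fall was largest to wild-type HSPCs, next to Sca1-BCL6Δ HSPCs and smallest to Sca1-BCL6Δ B cells. The fall per class ran from 13.9 to 20.4 points in wild-type HSPCs and from 0.514 to 5.23 in Sca1-BCL6Δ HSPCs, so that these ranges did not overlap. In Sca1-BCL6Δ B cells it ran from -0.594 to 1.87 points and was negative in 20 classes.

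**Figure D3:**
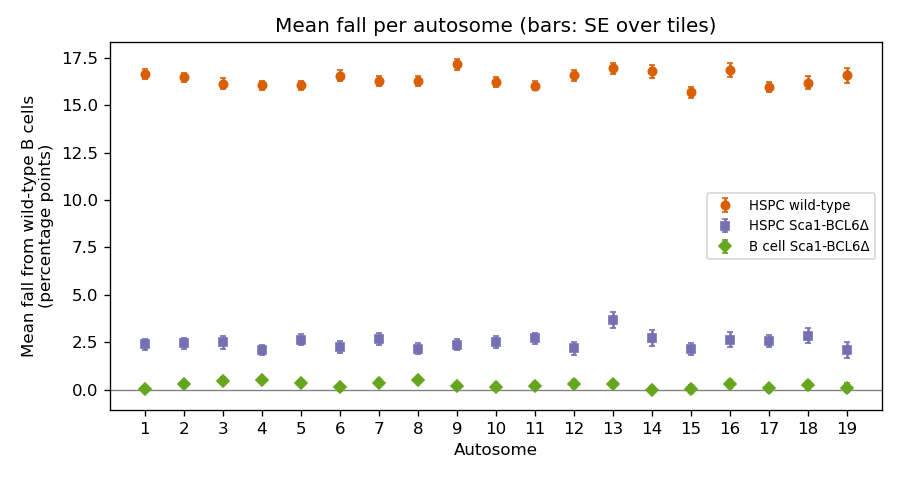
Mean fall from wild-type B cells (y axis, percentage points) on each autosome (x axis), 1 point per library, with bars for the standard error over tiles and a grey line at 0. Wild-type HSPCs lie between 15.7 and 17.2 points on every autosome, Sca1-BCL6Δ HSPCs between 2.07 and 3.66, and Sca1-BCL6Δ B cells between 0.00352 and 0.506.

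The lower level of wild-type HSPCs was also found along the chromosomes, though not quite evenly. Among 252 windows of 10 Mb with at least 20 measured members, the mean level in wild-type HSPCs ran from 70.8% to 82.3%, with a median of 78.5% and an SD over windows of 1.43 points. The lowest was chromosome 8, 30 to 40 Mb (mm9), with 103 tiles, a median of 75% and 7 tiles below 50%. In that window Sca1-BCL6Δ HSPCs had a mean of 91.9% over 28 tiles and Sca1-BCL6Δ B cells 94.1% over 82. Over 227 windows Sca1-BCL6Δ HSPCs ran from 87.9% to 96.7%, so the highest window of wild-type HSPCs was below the lowest of Sca1-BCL6Δ HSPCs. Members that lay in directly neighbouring tiles had levels correlated with r = 0.183 over 1979 pairs in wild-type HSPCs, 0.322 over 302 in Sca1-BCL6Δ HSPCs, 0.0920 over 8501 in wild-type B cells and 0.121 over 655 in Sca1-BCL6Δ B cells.

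The fall to wild-type HSPCs was larger far from unmethylated dense tiles than next to them. The reference points were 19844 tiles with 6 or more covered CpGs and a level of at most 20% in wild-type B cells, and the median distance from a member to the nearest of them was 47 kb. The fall to wild-type HSPCs was 15.0 points (SE 0.643) in members 1 tile away and 17.6 (SE 0.135) in members over 100 kb away. Part of this lay in wild-type B cells, which chose the tiles, with mean levels of 93.3% at 1 tile and 94.5% over 100 kb. Wild-type HSPC levels showed no steady order with distance. They were 78.2% (SE 0.624) at 1 tile, 79.5% at 2 to 5, 79.8% at 6 to 20, 78.7% at 21 to 100 and 77.0% (SE 0.168) beyond. The fall to Sca1-BCL6Δ HSPCs was 3.57 points (SE 0.892) at 1 tile and 2.14 (SE 0.152) over 100 kb, and that to Sca1-BCL6Δ B cells was 1.52 (SE 0.420) and 0.260 points. Members within 1 tile were few, with 620, 217 and 336 measured in that order, and in Sca1-BCL6Δ HSPCs the standard errors leave the order of near and far members unresolved. The span of a tile's CpGs changed little: wild-type HSPC levels were 81.1% where all CpGs lay within 50 bp and 77.6% where they spanned over 500 bp.

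In each library the mean fall was larger in the highest class of starting level than in the lowest. In wild-type HSPCs the fall was 14.1 points in members at 80 to 85% in wild-type B cells, 15.2 at 85 to 90%, 16.4 at 90 to 95%, 16.4 at 95% to under 100% and 17.2 in members that were fully methylated there. In Sca1-BCL6Δ B cells the fall rose from -2.31 points in the lowest class to 2.59 in the fully methylated class. In Sca1-BCL6Δ HSPCs the fall was 0.578, 0.457, 1.65, 2.48 and 4.53 points from the lowest to the highest class. Counting error in wild-type B cells is part of both the starting level and every fall. That favours a rise with the starting level in each library, HSPCs included, and its part in these trends was not tested. Relative to Sca1-BCL6Δ B cells in the same class, wild-type HSPCs were lower in all 5 classes.

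**Figure D4:**
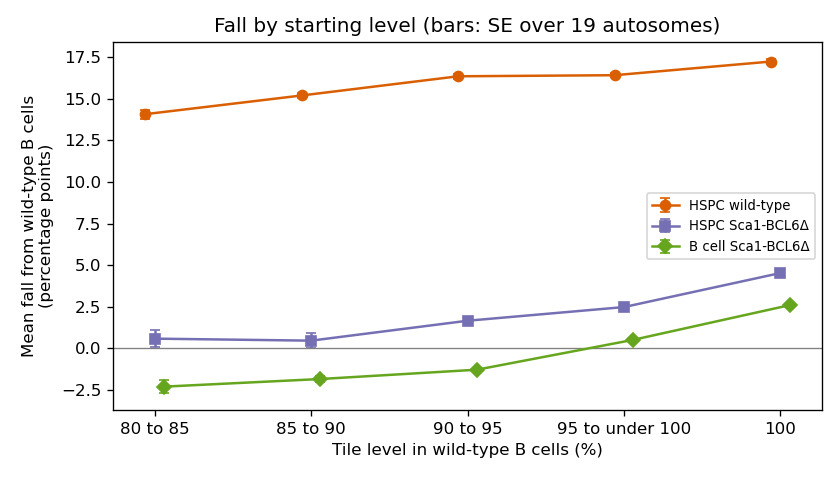
Mean fall from wild-type B cells (y axis, percentage points) by the level of the tile in wild-type B cells (x axis, 5 classes), 1 line per library, with bars for the standard error over 19 autosome means and a grey line at 0. Wild-type HSPCs lie from 14.1 to 17.2 points, far above Sca1-BCL6Δ HSPCs at 0.457 to 4.53 and Sca1-BCL6Δ B cells at -2.31 to 2.59.

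Individual tiles varied more in HSPCs than counting error gives. In the most covered CpG of each tile, where it had at least 20 reads, the SD over tiles after subtraction of the counting variance was 13.4 points in wild-type HSPCs (5004 tiles), 17.7 in Sca1-BCL6Δ HSPCs (324 tiles), 5.18 in wild-type B cells (24936 tiles) and 7.81 in Sca1-BCL6Δ B cells (1071 tiles). The deep CpGs of the shallower libraries are few and hold sites with unusually many reads. The most deeply read member, on chromosome 2 at 98506001 to 98507000 (mm9), held 4 CpGs and 245943 summed reads in wild-type HSPCs and 352227 in wild-type B cells, far above the median of 18 and 32 per member. Its levels were 84.6% in wild-type and 97.1% in Sca1-BCL6Δ HSPCs, and 98.1% in wild-type against 98.6% in Sca1-BCL6Δ B cells.

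Reads that spanned several CpGs showed how the lower level was distributed between reads. Of 414281 reads with 2 CpGs in member tiles of wild-type HSPCs, 12.7% (confidence interval 12.6 to 12.8) had both CpGs unmethylated. This share was 2.57% (2.502 to 2.63) of 219016 reads in Sca1-BCL6Δ HSPCs, 0.986% (0.963 to 1.01) of 727154 in wild-type B cells and 0.973% (0.939 to 1.01) of 292779 in Sca1-BCL6Δ B cells. Reads with 1 methylated and 1 unmethylated CpG made up 15.5%, 8.83%, 7.001% and 7.49% in the same order. If the CpGs of a read had been methylated independently at the library's own mean level, mixed reads would have made up 32.6% in wild-type HSPCs, so that fewer than that were mixed. In the B cell libraries the mixed share, 7.001% and 7.49%, lay nearer the 8.57% and 8.99% that independence gives. Tiles of unequal level also raise the share of reads that are alike, and the part of that was not tested.

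Reads without any methylated CpG were spread over many members in wild-type HSPCs. Among the tiles with at least 10 reads of 2 CpGs, 69.4% of 16368 held at least 1 such read in wild-type HSPCs, 19.9% of 5263 in Sca1-BCL6Δ HSPCs, 12.7% of 36813 in wild-type B cells and 8.46% of 9535 in Sca1-BCL6Δ B cells. Tiles in which over 50% of those reads were unmethylated were rare, at 1.38% in wild-type HSPCs and 0.722% in Sca1-BCL6Δ HSPCs. The share of unmethylated reads per autosome ran from 11.4% to 13.5% in wild-type HSPCs and from 2.22% to 2.95% in Sca1-BCL6Δ HSPCs. Of the 16.0 points by which reads with 2 CpGs were lower in wild-type HSPCs than in wild-type B cells, 11.7 came from fully unmethylated reads and 4.27 from mixed reads.

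From 1 to 4 CpGs on a read the mean level was higher with each further CpG in all 4 libraries. In wild-type HSPCs it was 77.5% on reads with 1 CpG, 79.5% with 2, 82.9% with 3 and 85.4% with 4, and in wild-type B cells 94.6%, 95.5%, 96.2% and 96.8%. The Sca1-BCL6Δ genotype had 91.0%, 93.0%, 94.5% and 95.5% in HSPCs, and 94.2%, 95.3%, 96.2% and 96.8% in B cells. Reads with 5 CpGs did not continue this outside wild-type HSPCs. Their level was 86.1% over 1714 reads in wild-type and 91.8% over 1328 in Sca1-BCL6Δ HSPCs, and for B cells 95.9% over 2692 in wild-type and 91.9% over 1817 in Sca1-BCL6Δ mice. Fully unmethylated reads made up 8.09% of the reads with 3 CpGs and 5.81% (5.43 to 6.21) of the 13854 reads with 4 in wild-type HSPCs, against 0.412% and 0.224% (0.171 to 0.292) in wild-type B cells. Reads with 2 CpGs did not show the trend with CpG count of the tile: in wild-type HSPCs their fully unmethylated share was 12.8%, 13.3%, 12.1% and 12.5% in tiles with 2, 3, 4 and 5 CpGs. CpGs that were read first, next to the cut site, and those read later on the same reads had like mean levels, 78.3% and 78.5% in wild-type HSPCs and 92.0% and 92.8% in Sca1-BCL6Δ HSPCs.

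**Figure D5:**
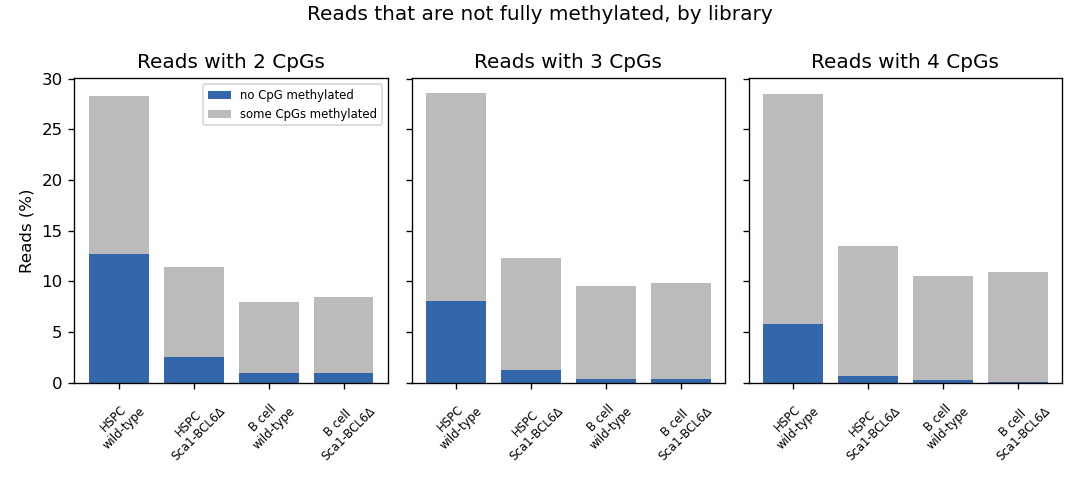
Percent of reads (y axis) in member tiles that were not fully methylated, for reads with 2, 3 and 4 CpGs (panels) in the 4 libraries (x axis). Blue bars stand for reads with no methylated CpG and grey bars for mixed reads: for 2 CpGs, the blue share is 12.7% in wild-type and 2.57% in Sca1-BCL6Δ HSPCs and under 1% in both B cell libraries.

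Between the HSPC libraries, neither of which chose the members, tiles were tested one at a time. The test was an exact conditional test stratified by CpG, two-sided, on CpGs read at least 5 times in each library and more than 50 bp apart, with Benjamini-Hochberg adjustment over all 48323 autosomal tiles tested. It compares the reads of 2 libraries, not the genotypes. Of 15179 members tested, 8 were called higher in Sca1-BCL6Δ HSPCs (0.0527%, against 0.0497% of all tiles) and 1 lower (0.00659%, against 0.0103%), where a call needed 20 points or more and an adjusted p below 0.05. These shares are near the background and are no result about the members. The medians were 14 and 17 reads per tested member, and 6853 members were tested on 1 CpG.

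The direction over all tested members was nevertheless one-sided. The difference was above 0 in 12340 members (81.3%) and below 0 in 2022 (13.3%), with a mean of 14.5 points and a median of 13.4. Over all tiles tested 61.6% were above 0, with a mean of 6.68 and a median of 5 points. All tiles include mostly unmethylated ones, which have less room to differ, so the comparison with them is a description. In tiles with 6 or more covered CpGs that met the same level rule, mean levels were 81.4% in wild-type and 92.7% in Sca1-BCL6Δ HSPCs. An unadjusted p under 0.05 was found in 2202 members (14.5%), of which 2110 were higher and 92 lower in Sca1-BCL6Δ HSPCs, whereas 10.5% of all tiles had such a p.

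The members called with the largest positive differences were low in wild-type HSPCs and highly methylated in the other libraries. On chromosome 16, in the tile at 97965001 to 97966000 (mm9), the CpG at 97965702 was methylated in 0 of 14 reads in wild-type HSPCs (upper bound 21.5%) and in 10 of 10 in Sca1-BCL6Δ HSPCs (lower bound 72.2%), and the exact conditional test gave an adjusted p of 0.0011. The same CpG was methylated in 16 of 16 reads in wild-type B cells and 8 of 8 in Sca1-BCL6Δ B cells. The other CpGs of that tile, with 4 reads each in wild-type HSPCs, were methylated in 2 of 4 and 4 of 4. On chromosome 10, tile 41323001 to 41324000, the tested CpGs had 1 of 15 methylated reads in wild-type HSPCs and 10 of 11 in Sca1-BCL6Δ HSPCs (exact conditional test, adjusted p = 0.042). Tile 67696001 to 67697000 of chromosome 11 had 5 of 17 against 24 of 24 (adjusted p = 0.012, exact conditional test). In tile 166493001 to 166494000 of chromosome 2 the 1 tested CpG had 7 of 25 against 12 of 12 (adjusted p = 0.042, exact conditional test), and over all CpGs of the tile the counts were 26 of 52 (50%) and 19 of 20 (95%). The tested CpGs of tile 52415001 to 52416000 of chromosome 18 had 3 of 15 against 17 of 17 (adjusted p = 0.0077, exact conditional test). In the 5 tiles named here, the Sca1-BCL6Δ B cell level was 85.7% or more. Of these calls, that on chromosome 16 was kept under all 6 alternatives that could test it. Those that only changed the minimum difference, to 10 or 30 points, could not end a call with a difference of 100 points. In place of the exact test, the Cochran-Mantel-Haenszel test ended the calls on chromosomes 10, 2 and 18 (adjusted p = 0.22, 0.22 and 0.059). Leaving out the most covered CpGs ended those on chromosomes 10, 2 and 11 (exact conditional test, adjusted p = 0.087, 0.087 and 0.056). Their differences stayed at 84.2, 72 and 70.6 points there, so the tested CpGs of these tiles were not among those left out. Equal coverage, where each CpG was thinned at random to its lowest coverage in the 4 libraries, also ended those calls (exact conditional test, adjusted p = 0.26, 0.54 and 0.36).

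The call that rested on the most reads had a smaller difference. Tile 8857001 to 8858000 of chromosome 6, chosen for mention after its values were seen, had 545 of 915 methylated reads (59.6%, 56.3 to 62.7) for wild-type HSPCs and 119 of 138 (86.2%, 79.5 to 91.0) in Sca1-BCL6Δ HSPCs, with an adjusted p of 2.4e-06 in the exact conditional test. Its levels were 84.5% in wild-type against 80.3% in Sca1-BCL6Δ B cells. The tile was not tested once the most covered CpGs were left out, and at equal coverage it was no longer called (difference 21.3 points, adjusted p = 0.11, exact conditional test).

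The member called lower in Sca1-BCL6Δ HSPCs lay on chromosome 5 at 144236001 to 144237000. Its tested CpGs had 2 of 12 methylated reads in Sca1-BCL6Δ HSPCs (16.7%, 4.70 to 44.8) and 37 of 41 in wild-type HSPCs (90.2%, 77.5 to 96.1), with an adjusted p of 0.0056 in the exact conditional test. Over the whole tile the levels were 93.1% in wild-type and 27.8% in Sca1-BCL6Δ HSPCs, and 98.7% in wild-type against 100% of 26 reads in Sca1-BCL6Δ B cells. Only the Sca1-BCL6Δ HSPC library was low there. At equal coverage the tile was no longer called (exact conditional test, adjusted p = 0.14).

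Within the Sca1-BCL6Δ genotype, B cells were compared with HSPCs by the same test over 45880 tiles. Of 13739 members tested, 13 were called higher in B cells (0.0946%, against 0.0632% of all tiles) and 0 lower (against 0.0327%). At an unadjusted p under 0.05 in this test there were 285 members higher and 46 lower. Together they made up 2.41% of the members tested, below the 3.54% of all tiles tested. The Cochran-Mantel-Haenszel test also called 0 lower, and Fisher's exact test on pooled CpGs called 3. Members were chosen for a high level in B cells, and that choice favours this direction. The mean difference was 2.55 points and the median 0 over the members, against a mean of 0.904 over all tiles. The difference was above 0 in 44.3% of the members and below 0 in 27.3%. Over all tiles tested it was above 0 in 44.7%, so the share above 0 is no result about the members.

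Members called in the Sca1-BCL6Δ genotype were tiles in which the HSPC library was low. The chromosome 5 tile at 144236001 was among them, with 18 of 18 methylated reads in B cells against 2 of 12 (exact conditional test, adjusted p = 0.0086). Tile 27448001 to 27449000 of chromosome 2 had 21 of 21 in B cells and 4 of 22 in HSPCs (exact conditional test, adjusted p = 7e-05). Over that whole tile, with 5 CpGs, the level was 65.8% in wild-type and 20.4% in Sca1-BCL6Δ HSPCs, and 92.9% in wild-type against 100% in Sca1-BCL6Δ B cells, so both HSPC libraries were below the B cell libraries. On chromosome 11, the 1 tested CpG of tile 31750001 to 31751000 had 14 of 15 against 2 of 13 (exact conditional test, adjusted p = 0.048), and wild-type HSPCs were methylated in 22 of 22 reads over the whole tile. In tile 62329001 to 62330000 of chromosome 10, the 1 tested CpG had 13 of 13 against 2 of 11 (exact conditional test, adjusted p = 0.042), and the whole tile 31 of 32 against 13 of 27 (48.1%). In tile 77114001 to 77115000 of chromosome 14, the 1 tested CpG had 14 of 14 against 3 of 14 (exact conditional test, adjusted p = 0.04), and the whole tile 38 of 41 against 13 of 33 (39.4%). Of these calls, that on chromosome 2 was kept under all 7 alternatives. Those that only changed the minimum difference, to 10 or 30 points, could not end a call with a difference of 81.8 points. Fisher's exact test on pooled CpGs counts a read once per CpG and so favours a call. With a minimum of 10 reads per CpG the calls on chromosomes 10, 11 and 14 were lost (exact conditional test, adjusted p = 0.055, 0.06 and 0.051). Their differences stayed at 81.8, 77.9 and 78.6 points there. The same CpG was tested in each, and what changed was the set of tiles in the adjustment. The calls on chromosomes 10, 11, 14 and 5 were lost with the Cochran-Mantel-Haenszel test in place of the exact test (adjusted p = 0.23, 0.2, 0.16 and 0.062). The calls on chromosomes 10 and 11 ended without the most covered CpGs (exact conditional test, adjusted p = 0.052 and 0.058). Their differences stayed at 81.8 and 77.9 points there, so their tested CpGs were not among those left out. At equal coverage the calls on chromosomes 5, 11 and 14 ended (exact conditional test, adjusted p = 0.18, 0.58 and 0.058).

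Among the shared tiles, those with the largest fall are given as a description. The largest fall to wild-type HSPCs was in tile 37396001 to 37397000 of chromosome 19. It went from 100% of 40 summed reads in wild-type B cells to 25% of 32 (interval 13.3 to 42.1). Each of its CpGs had 10 of 10 methylated reads in the former and 2 of 8 in the latter. The interval may thus rest on repeated counts of the same reads and be too narrow. The Sca1-BCL6Δ genotype had 90.9% in HSPCs and 100% in B cells. Next came tile 55274001 to 55275000 of chromosome 6, with 95% in wild-type against 100% in Sca1-BCL6Δ B cells, and 21.4% in wild-type and 97.2% in Sca1-BCL6Δ HSPCs. Tile 47239001 to 47240000 of chromosome 4 stood at 28.6% in wild-type HSPCs and at 100% in the other 3 libraries. In the 5 tiles with the largest falls to wild-type HSPCs, which include 93224001 of chromosome 16 and 37146001 of chromosome 8, Sca1-BCL6Δ HSPCs had 80% or more.

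Falls to Sca1-BCL6Δ HSPCs reached 85.1 points in single tiles. Tile 108215001 to 108216000 of chromosome 8 went from 94.6% in wild-type B cells to 9.52% of 21 reads (2.65 to 28.9), with 93.3% in wild-type HSPCs and 97.0% in Sca1-BCL6Δ B cells. Tile 161337001 to 161338000 of chromosome 2 stood at 13.9% of 36 reads (6.08 to 28.7) there, with 98.1% in wild-type B cells, 76.7% in wild-type HSPCs and 95.6% in Sca1-BCL6Δ B cells. Tile 35176001 to 35177000 of chromosome 7 stood at 9.09% of 22 reads, with 87.9%, 73.3% and 95.2% in the same order. These reads are summed over CpGs. In Sca1-BCL6Δ HSPCs they were 7 at each CpG of the chromosome 8 tile and 9 at each CpG of the chromosome 2 tile. The intervals of those tiles may thus rest on repeated counts of the same reads and be too narrow.

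Tile 120724001 to 120725000 of chromosome 14 had pooled levels below 50% in every library other than wild-type B cells. Its levels were 92.1% in wild-type against 45.5% in Sca1-BCL6Δ B cells, and 39.1% in wild-type and 19.05% in Sca1-BCL6Δ HSPCs, on 38, 22, 23 and 21 reads. Its CpG at 120724310 was methylated in 5 of 8 reads in wild-type B cells, against 15 of 15 at each of the other CpGs. The reads of Sca1-BCL6Δ B cells fell mostly on that CpG, 18 of 22, where 6 were methylated, and its other CpGs were methylated in 2 of 2 reads each. With the mean of CpG levels the fall to Sca1-BCL6Δ B cells was 9.72 points and at equal coverage 18.2, against 46.7 from pooled reads. The fall to Sca1-BCL6Δ HSPCs was 73.1 points from pooled reads and 45.5 at equal coverage. The largest fall to Sca1-BCL6Δ B cells, from 85.2% to 25% of 32 reads (13.3 to 42.1), was in tile 97584001 to 97585000 of chromosome 11, which had 90% in wild-type HSPCs and 87.0% in Sca1-BCL6Δ HSPCs. Next came tile 35808001 to 35809000 of chromosome 18, with 43 of 48 methylated reads (89.6%) in wild-type and 8 of 24 (33.3%, 18.0 to 53.3) in Sca1-BCL6Δ B cells. The HSPC levels there were 84% for wild-type and 100% for Sca1-BCL6Δ mice. Its fall of 56.3 points was 61.1 with the mean of CpG levels and 61.5 at equal coverage. Tile 139091001 to 139092000 of chromosome 4 stood at 32.1% in Sca1-BCL6Δ B cells and 81.4% in wild-type ones, a fall of 49.2 points. That fall was 13.2 with the mean of CpG levels and 26.7 at equal coverage. Of its 28 Sca1-BCL6Δ B cell reads, 8 and 14 lay on the CpGs at 139091142 and 139091188, which were methylated in 0 of 2 and 5 of 8 reads in wild-type B cells. Tile 56215001 to 56216000 of chromosome 13 stood at 37.5% in Sca1-BCL6Δ B cells, with 86.4% in wild-type B cells.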

How the data were processed

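DNA digested with MspI and TaqI was treated with bisulfite and amplified for 18 PCR cycles, per the labels' protocols. Reads were aligned by the authors to 36-bp fragment ends predicted from the genome, per the submitters' methods text, and mm9 is the build in the submitters' processing notes. Removal of PCR duplicates is not given in the sources used here. The deposited CpG tables hold methylated and total read counts per CpG and, per the file headers, a mean methylation score that was not used. The deposited read tables hold the percent of methylated CpGs and the count of CpGs of each read.

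From these, counts were summed per 1 kb tile and library with python 3.11.15, pandas 2.3.3 and numpy 2.4.6. Levels needed at least 20 summed reads. The exact conditional test, two-sided, ran on CpGs read at least 5 times in each library, thinned to more than 50 bp apart, in tiles with at least 10 reads in each. Benjamini-Hochberg adjustment ran over all autosomal tiles tested, and calls needed an adjusted p under 0.05 and 20 percentage points. The test was checked on simulated data. Up to 5 called tiles per direction and the 5 largest falls among tiles with 20 reads in all 4 libraries were named, and other tiles are named only where the text says so. The members, the test and the alternatives were chosen with earlier results of these data known. No genome or annotation of mm9 was used here, so tiles carry coordinates (counted from 1) without sequence or gene names. Alternatives were other read and level minimums, tile borders, CpG counts, coverage limits, tests and a mirrored choice of members by Sca1-BCL6Δ B cells.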

Additional observations from a re-analysis of the deposited data

Results flagged for a closer look

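The genotype difference in the member tiles had opposite signs in the 2 cell types. Over the 9940 tiles with at least 20 reads in all 4 libraries, Sca1-BCL6Δ HSPCs were 13.1 percentage points above wild-type HSPCs on average (SD 13.5 over tiles), with 8509 tiles above 0 and 1212 below. Sca1-BCL6Δ B cells differed from wild-type B cells by -0.143 points (SD 5.98), with 4627 tiles above 0 and 4097 below, and the autosome means of that difference ran from -0.572 to 0.478 points. With 1 pooled library per condition the difference between the cell types was not tested. The tiles were chosen by their level in wild-type B cells, which favours a negative B cell difference, and with the choice by Sca1-BCL6Δ B cells the fall between the B cell libraries was -1.13 points.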

How the results depend on the processing

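The mean fall kept its order over the libraries under all 11 settings planned for it. To wild-type HSPCs it was 16.4 points in the report, 17.2 and 14.9 with minimums of 10 and 40 reads, 16.7 and 16.1 with level limits of 90% and 70%, and 16.1 with the mean of CpG levels. It was 15.5 with 20 reads in all 4 libraries, with CpGs thinned to equal coverage and with tiles chosen by Sca1-BCL6Δ B cells. To Sca1-BCL6Δ HSPCs it was 2.65 and 2.14 with the read minimums, 2.86 with 90%, 2.57 with CpG means, 2.38 with reads in all 4 libraries, 2.70 thinned and 1.85 with the mirrored choice. To Sca1-BCL6Δ B cells it was 0.567 and 0.0547, 0.689 with 90% and 0.101 with 70%, 0.441, 0.143 and 0.454 in the same order, and it changed sign to -1.13 with the mirrored choice.

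Members called between the HSPC libraries numbered 9 of 15179 tested. With all CpGs of a tile pooled in Fisher's exact test, which counts a read once per CpG, they numbered 1425 of 28752. They numbered 4 of 15179 with the Cochran-Mantel-Haenszel test, 3 of 15026 without the CpGs of highest coverage and 19 of 15054 with shifted borders. With the mirrored choice they numbered 5 of 9256. At equal coverage they numbered 0 of 4757, where 428 had an unadjusted p under 0.05 in the exact conditional test. In the Sca1-BCL6Δ comparison the 13 calls of 13739 became 136 of 26758 (pooled Fisher) and 2 of 13739 (Cochran-Mantel-Haenszel). They became 8 of 13610 without the CpGs of highest coverage, 1 of 8185 with 10 reads per CpG and 1 of 4757 at equal coverage. The cause of these moves was not tested. Shares over all tiles were not counted under the alternatives, so these counts are no result about the members.

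Unmethylated reads with 2 CpGs, by alternatives chosen after seeing the data, made up 12.9% in wild-type HSPCs without the 7 tiles over 1000 reads. Averaged over tiles they made up 12.99% there, 2.85% in HSPCs and 0.893% in B cells of the Sca1-BCL6Δ genotype. No paired analysis was possible because each condition was 1 pooled library without replicate numbers, and for the same reason no replicate could be left out.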
